A study of Homo sapiens with 9 samples.

Results

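The 9 genes described here encode the enzymes that make UDP-GlcNAc and the pair of enzymes that add it to, and remove it from, intracellular proteins. They are GFPT1, GFPT2, GNPNAT1, PGM3, UAP1, NAGK, GNE, OGT and OGA, taken by gene symbol from the 61552 genes in the expression tables, and each symbol matched 1 gene. The libraries came from wild-type MDA-MB-231 cells, an established human triple-negative breast cancer (TNBC) line. Cells were kept for 24 h with 0 mM (control), 10 mM or 20 mM 2-deoxy-glucose (2-DG), a glucose analogue that is phosphorylated by hexokinase but is not carried further through glycolysis. Each dose had 3 libraries. The series title gives altered lactate levels as its subject. All groups share 1 cell line, 1 genotype and 1 time point, so nothing here bears on other lines or times. No source states that the libraries of a dose came from separate cultures, so p-values measure only the spread between these samples, which may be technical.

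The hexosamine pathway branches from glycolysis at fructose-6-phosphate. GFPT1 and GFPT2 use glutamine to turn fructose-6-phosphate into glucosamine-6-phosphate, the step that limits the rate of the route. GNPNAT1 acetylates this product, PGM3 moves its phosphate, and UAP1 joins it to UTP to give UDP-GlcNAc. NAGK returns free GlcNAc to the route, and GNE draws on UDP-GlcNAc to start sialic acid synthesis. OGT attaches GlcNAc from UDP-GlcNAc to serines and threonines of nuclear and cytoplasmic proteins, and OGA takes it off again. In cancer cells the route is known as a sensor of glucose, glutamine and nucleotide supply.

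All 9 members are protein coding. In GENCODE release 29 (GRCh38), GFPT1 (ENSG00000198380) lies at chr2:69319769-69387254 on the minus strand and its paralog GFPT2 (ENSG00000131459) at chr5:180300690-180353387, also on the minus strand. GNPNAT1 (ENSG00000100522) lies at chr14:52775194-52791668 on the minus strand, PGM3 (ENSG00000013375) at chr6:83161150-83193936 on the minus strand and UAP1 (ENSG00000117143) at chr1:162561506-162599842 on the plus strand. NAGK (ENSG00000124357) lies at chr2:71064344-71079805 on the plus strand and GNE (ENSG00000159921) at chr9:36214441-36277056 on the minus strand. OGT (ENSG00000147162) lies at chrX:71533083-71575897 on the plus strand and OGA (ENSG00000198408) at chr10:101784443-101818465 on the minus strand. The exons of GNPNAT1 share 1426 bases with AL139317.3 and those of PGM3 share 1087 bases with DOP1A, both partners on the opposite strand. Whether counting used the strand is not given in the sources used here, so reads on these shared bases could come from either partner.

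The bases just upstream of the 4 genes at the entry to the route and at protein O-GlcNAc cycling are shown, because these include the members with the largest changes and the entry paralog GFPT2, whose change at 20 mM was the smallest of the 9. Genes of this route are described as targets of the transcription factors XBP1 and ATF4, which act in the unfolded protein response and the integrated stress response. Sequences are from the RefSeq promoter windows of GRCh38.p14, cut at the outermost GENCODE start so that no transcribed base is included, and are written 5′ to 3′ on the strand of the gene. Capitals mark CCAAT and CCACG, the end blocks of the ER stress response element, on either strand (ATTGG and CGTGG on the other). The stretches are chr2:69387255-69387477 for GFPT1 (minus strand, 223 bases), chr5:180353388-180353586 for GFPT2 (minus strand, 199 bases), chrX:71532854-71533082 for OGT (plus strand, 229 bases) and chr10:101818466-101818694 for OGA (minus strand, 229 bases).
GFPT1: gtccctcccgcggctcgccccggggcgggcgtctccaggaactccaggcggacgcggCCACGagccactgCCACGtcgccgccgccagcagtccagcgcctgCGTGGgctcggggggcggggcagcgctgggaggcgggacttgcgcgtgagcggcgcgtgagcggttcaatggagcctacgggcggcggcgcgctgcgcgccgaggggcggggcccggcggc
GFPT2: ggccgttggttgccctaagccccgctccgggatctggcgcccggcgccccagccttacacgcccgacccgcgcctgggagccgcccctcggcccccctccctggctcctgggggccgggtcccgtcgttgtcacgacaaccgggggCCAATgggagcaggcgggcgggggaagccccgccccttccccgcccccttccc
OGT: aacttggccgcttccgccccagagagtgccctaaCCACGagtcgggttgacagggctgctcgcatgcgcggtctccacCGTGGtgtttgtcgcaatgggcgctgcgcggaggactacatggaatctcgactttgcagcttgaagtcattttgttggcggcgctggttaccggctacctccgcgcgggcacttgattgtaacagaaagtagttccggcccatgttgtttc
OGA: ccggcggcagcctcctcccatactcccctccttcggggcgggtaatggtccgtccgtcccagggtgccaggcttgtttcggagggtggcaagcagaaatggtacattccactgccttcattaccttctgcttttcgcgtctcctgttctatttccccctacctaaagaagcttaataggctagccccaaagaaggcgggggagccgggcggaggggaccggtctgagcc

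The GFPT1 stretch held 3 CCACG and no CCAAT, the GFPT2 stretch held 1 CCAAT and no CCACG, the OGT stretch held 2 CCACG, and the OGA stretch held neither. G and C made up 80.3% of the GFPT1 stretch, 77.9% of the GFPT2 stretch, 58.5% of the OGT stretch and 60.3% of the OGA stretch, where the median over the 250 bases before the start of all 35116 RefSeq windows was 58%. All 9 members matched the RefSeq table, with 14 windows of 300 bases between them. Both strands of each window were searched for the ER stress response element (ERSE: CCAAT, then 9 N, then CCACG), its second form (ERSE-II: ATTGG, N and CCACG in a row), the unfolded protein response element (TGACGTGG, whose reverse complement overlaps CCACG) and the ATF4 element (TGATGNAA). These 4 motifs were found in 0.0769%, 0.0541%, 0.729% and 3.62% of all windows, and in 0 of the 14 member windows. This says only that those letters are not in these windows. The short blocks are common: CCAAT was in 34.6% of all windows and in 7 of the 14, and CCACG in 38.1% of all windows and in 10 of the 14. The short blocks were searched after the longer motifs had given no match.

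Values are FPKM, reads scaled to the length of the gene and the depth of the library, so levels can be set side by side. Levels of different genes still depend on the lengths used. Libraries also differed in the level of long against short genes, as described below. A change in total RNA per cell is not seen. Totals worked out from the values ran from 30974968 to 40843638 reads per library, with overlapping ranges in the 3 groups, and 1 read on 1 kb was worth 0.0245 to 0.0323 FPKM. Every member had at least 1039 reads in every library. Counting error is small beside wide spreads, such as that of OGT in controls (SD 21.3% of the mean). It is not small beside the tightest groups. The SD was 0.894% of the mean for NAGK in controls, on 1515 to 1634 reads. At 20 mM it was 1.23% for PGM3 and 1.87% for GNPNAT1. The line's mesenchymal markers VIM, AXL, CAV1 and CD44 averaged 283, 109, 77.2 and 61.6 FPKM over the 9 libraries. Among genes listed as low or absent in this line, the hormone receptor genes ESR1 and PGR had at most 4 and 11 reads in a library. The others, CDH1, GATA3, EPCAM and ERBB2, averaged 0.161, 1.66, 3.31 and 6.83 FPKM. ERBB2 and EPCAM were thus low but not absent. Replicates correlated at r = 0.9889 to 0.9961 over all genes tested, and no pair was alike to within sampling noise.

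Changes were tested with limma on log2(FPKM + 1) over 16570 genes, and a gene was called when its Benjamini-Hochberg adjusted p was under 0.05. All 9 members entered the test. In controls, GFPT2 had the highest level (37.1 ± 0.874 FPKM, SD, n = 3), followed by UAP1 (19.9 ± 1.47), OGA (15.7 ± 1.77), OGT (10.9 ± 2.33), GNE (10.6 ± 1.57), GFPT1 (8.61 ± 1.01), GNPNAT1 (8.42 ± 1.20), PGM3 (6.04 ± 0.591) and NAGK (5.01 ± 0.0448). The ranges of neighbouring genes overlapped from OGT down to GNPNAT1, while GFPT2, UAP1, OGA, PGM3 and NAGK stood clear of their neighbours. At 20 mM 2-DG the order was GFPT2 (41.4 ± 2.02 FPKM), OGA (24.7 ± 0.922), UAP1 (23.7 ± 0.843), GFPT1 (23.3 ± 0.681), OGT (17.9 ± 1.03), GNPNAT1 (9.90 ± 0.185), PGM3 (8.48 ± 0.104), GNE (7.48 ± 0.975) and NAGK (6.52 ± 0.323). There the ranges of OGA, UAP1 and GFPT1 overlapped with their neighbours, as did those of PGM3, GNE and NAGK. GFPT1 thus passed from the sixth level to the fourth, and GNE from the fifth to the eighth. GFPT2 was the highest of the 9 in every library.

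At 10 mM 2-DG, GFPT1, PGM3, OGT and OGA rose. limma called 4 of 9 higher and 0 lower, where 29.6% of all genes tested were called, 12.1% higher and 17.5% lower. GNE was not called there (-0.37, limma adjusted p = 0.0970). With limma-voom on reads worked back from the FPKM, 5 members were called, where 31.2% of all genes tested were. GNE was the one called lower (-0.41, limma-voom adjusted p = 0.0456). At 20 mM these 4 rose again, UAP1 and NAGK rose too, and GNE fell: 6 of 9 were called higher and 1 lower, where 37% of all genes were called, 15.4% higher and 21.6% lower. The median log2 fold change of the members was 0.16 at 10 mM and 0.32 at 20 mM, beside -0.01 and -0.02 over all genes tested. The 2 comparisons share the control libraries. In 5 members (GFPT1, PGM3, NAGK, OGT and OGA) all 6 treated libraries lay above all 3 controls, which held for 15.3% of all genes tested. At 20 mM no member overlapped with its controls, 8 lying above and 1 below, where 53.3% of all genes did not overlap (23.3% above and 29.9% below). At 10 mM 5 members did not overlap, all above their controls, where 40.5% of all genes did not (17.8% above and 22.7% below).

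**Figure D1:**
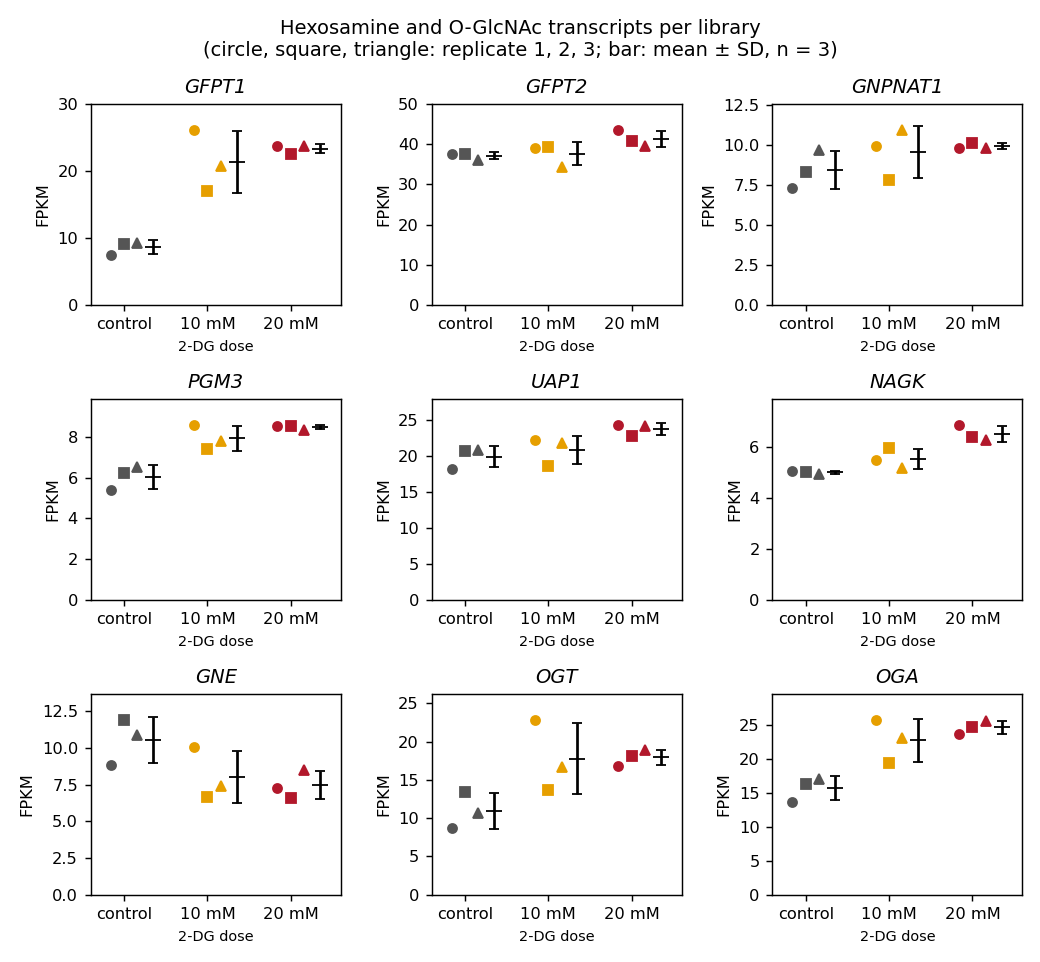
Level of each of the 9 members in FPKM (y axis, starting at 0) by 2-DG dose (x axis), with 1 point per library and the mean and SD of 3 libraries per dose. GFPT1 sits at 7.44 to 9.27 FPKM in controls and at 17.0 to 26.1 FPKM in the treated libraries, and GFPT1, OGT and OGA are each spread most widely at 10 mM.

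GFPT1, the entry enzyme expressed in most tissues, showed the largest change of the 9. It read 7.44, 9.12 and 9.27 FPKM in controls, 26.1, 17.0 and 20.8 FPKM at 10 mM and 23.6, 22.5 and 23.7 FPKM at 20 mM. All treated libraries stood well above all controls, and the 10 mM libraries were spread more widely than the 20 mM ones. The mean rose 2.47-fold at 10 mM, from 8.61 ± 1.01 to 21.3 ± 4.57 FPKM, and 2.71-fold at 20 mM, to 23.3 ± 0.681 FPKM (SD, n = 3 each). On the log2(FPKM + 1) scale the changes were 1.20 (SE 0.133, limma adjusted p = 0.000152) and 1.34 (adjusted p = 5.04e-05). GFPT1 was the only member to pass the rule of an unadjusted p under 0.05 with an absolute log2 fold change over 1, which 0.579% of all genes tested passed upward and 1.16% downward at 10 mM, and 0.966% and 1.96% at 20 mM. Its log2 fold change lay at percentile 99.7 of all genes tested at either dose.

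Its paralog GFPT2, which catalyses the same step, began at the higher level, the GFPT1 reading in controls being 0.232 ± 0.0310 of it (SD, n = 3), and was not called at either dose. It read 37.7, 37.5 and 36.1 FPKM in controls, 39.1, 39.4 and 34.4 FPKM at 10 mM and 43.6, 40.8 and 39.7 FPKM at 20 mM. The 10 mM libraries lay on both sides of the controls, and the 20 mM libraries lay just above them. The log2 change was 0.02 at 10 mM (95% interval -0.13 to 0.16, limma adjusted p = 0.868) and 0.15 at 20 mM (0.01 to 0.30, adjusted p = 0.0963). Under upper-quartile scaling the 20 mM value was 0.24 with an adjusted p of 0.0214, and with the 10 mM libraries left out of the fit the adjusted p was 0.0457.

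The balance of the paralogs therefore shifted within each library. The log2 ratio of GFPT1 to GFPT2 was -2.34, -2.04 and -1.96 in controls, -0.58, -1.21 and -0.73 at 10 mM and -0.88, -0.86 and -0.74 at 20 mM. Every treated library had a higher ratio than every control. GFPT1 made up 18.8 ± 2.06% of the summed FPKM of the pair in controls, 35.9 ± 5.16% at 10 mM and 36.0 ± 1.22% at 20 mM. The sum itself went from 45.7 ± 0.812 FPKM to 58.9 ± 5.46 and 64.7 ± 2.23 FPKM (SD, n = 3 each). These ratios are descriptions without a test. GFPT1 (8851 bases) is longer than GFPT2 (4721 bases), and libraries differed in the level of long genes, as described below. Both that level and the ratio were highest in 10 mM replicate 1. Within their groups, both were lowest in control replicate 1 and in 10 mM replicate 2. The part of gene length in the ratio was not tested.

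**Figure D2:**
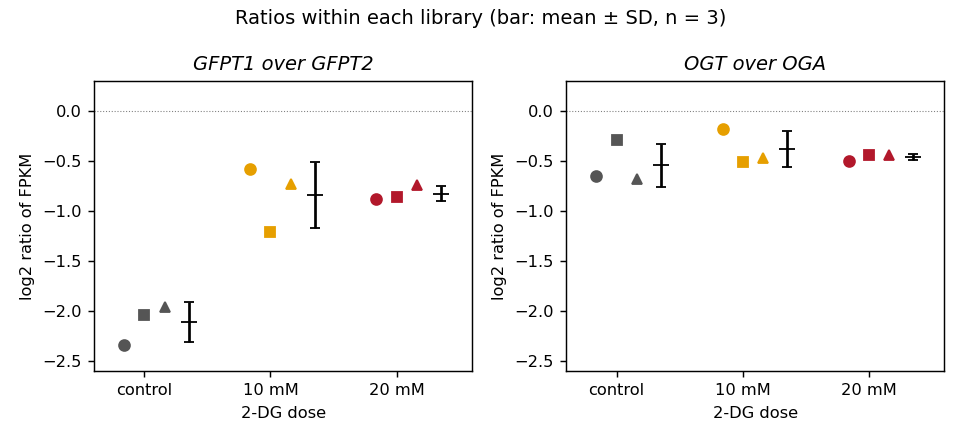
log2 ratio of FPKM within each library (y axis) by 2-DG dose (x axis) for GFPT1 to GFPT2 and for OGT to OGA, with 1 point per library and bars for the mean and SD of 3 libraries. The GFPT1 to GFPT2 ratio is -2.34 to -1.96 in controls and -1.21 to -0.58 in treated libraries, while the OGT to OGA ratios of the 3 groups overlap.

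Of the 3 enzymes that carry the product on to UDP-GlcNAc, PGM3 rose at both doses, UAP1 at 20 mM, and GNPNAT1 was called at neither. PGM3, the phosphoacetylglucosamine mutase, read 5.38, 6.22 and 6.51 FPKM in controls, 8.60, 7.41 and 7.83 FPKM at 10 mM and 8.54, 8.54 and 8.36 FPKM at 20 mM. The treated libraries were all above the controls. Its log2 change was 0.35 at 10 mM (SE 0.0812, limma adjusted p = 0.0103) and 0.43 at 20 mM (SE 0.0812, adjusted p = 0.00243).

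UAP1, the pyrophosphorylase that completes UDP-GlcNAc, read 18.2, 20.7 and 20.7 FPKM in controls, 22.1, 18.5 and 21.8 FPKM at 10 mM and 24.3, 22.7 and 24.1 FPKM at 20 mM. The 10 mM libraries overlapped with the controls and the 20 mM libraries did not. The log2 change was 0.06 at 10 mM (limma adjusted p = 0.600) and 0.25 at 20 mM (SE 0.0796, adjusted p = 0.0355). The 20 mM call was lost when control replicate 1 was left out (0.19, adjusted p = 0.118), or 20 mM replicate 1 (0.23, adjusted p = 0.108), replicate 2 (0.27, adjusted p = 0.0578) or replicate 3 (0.23, adjusted p = 0.0986).

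GNPNAT1, the acetyltransferase, read 7.30, 8.27 and 9.68 FPKM in controls, 9.93, 7.78 and 10.9 FPKM at 10 mM and 9.78, 10.1 and 9.81 FPKM at 20 mM. The controls and the 10 mM libraries were each spread over more than 2 FPKM and overlapped, while the 20 mM libraries lay close together just above the highest control. The log2 change was 0.16 at 10 mM (95% interval -0.11 to 0.43, limma adjusted p = 0.358) and 0.22 at 20 mM (-0.05 to 0.49, adjusted p = 0.187).

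NAGK, the kinase that salvages GlcNAc freed in the lysosome or taken up, had the lowest level of the 9 in controls. It read 5.05, 5.01 and 4.96 FPKM in controls, 5.51, 5.96 and 5.18 FPKM at 10 mM and 6.88, 6.40 and 6.27 FPKM at 20 mM. The 3 groups did not overlap and lay in the order of the dose. NAGK, GFPT2 and UAP1 were the 3 members that lay higher at 20 mM than at 10 mM without overlap, as did 4.71% of all genes. Its log2 change was 0.12 at 10 mM (95% interval -0.04 to 0.28, limma adjusted p = 0.237) and 0.32 at 20 mM (SE 0.0724, adjusted p = 0.00647).

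GNE, which makes ManNAc from UDP-GlcNAc and so opens the sialic acid branch, was the only member below its controls. It read 8.86, 11.9 and 10.9 FPKM in controls, 10.1, 6.63 and 7.41 FPKM at 10 mM and 7.31, 6.59 and 8.52 FPKM at 20 mM. The 20 mM libraries were all below the controls, and 10 mM replicate 1 lay among the controls. The mean went from 10.6 ± 1.57 FPKM to 8.03 ± 1.79 FPKM at 10 mM and 7.48 ± 0.975 FPKM at 20 mM (SD, n = 3 each). The log2 change was -0.37 at 10 mM (limma adjusted p = 0.0970) and -0.45 at 20 mM (SE 0.150, adjusted p = 0.0415). The 20 mM call was lost without control replicate 2 (-0.36, adjusted p = 0.133) or replicate 3 (-0.42, adjusted p = 0.110), without 10 mM replicate 3 (adjusted p = 0.0547), without 20 mM replicate 1 (-0.43, adjusted p = 0.103) or replicate 2 (-0.37, adjusted p = 0.136), and under upper-quartile scaling (-0.36, adjusted p = 0.0772). Without 10 mM replicate 1 the 10 mM value was -0.52 and was called (adjusted p = 0.0183).

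OGT and OGA, the enzymes with opposite actions on protein O-GlcNAc, rose side by side. OGT read 8.76, 13.4 and 10.6 FPKM in controls, 22.9, 13.7 and 16.7 FPKM at 10 mM and 16.8, 18.1 and 18.8 FPKM at 20 mM. All treated libraries were above all controls, though 10 mM replicate 2 only just passed control replicate 2. The mean rose 1.63-fold at 10 mM, from 10.9 ± 2.33 to 17.8 ± 4.66 FPKM, and 1.64-fold at 20 mM, to 17.9 ± 1.03 FPKM (SD, n = 3 each). The log2 change was 0.64 (SE 0.175, limma adjusted p = 0.0208) and 0.68 (adjusted p = 0.0125). The 10 mM call was lost without control replicate 1 (0.51, adjusted p = 0.0724) or control replicate 3 (0.63, adjusted p = 0.0582), and the 20 mM call held without each of the 9 libraries in turn.

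OGA read 13.7, 16.4 and 17.1 FPKM in controls, 25.8, 19.5 and 23.1 FPKM at 10 mM and 23.8, 24.7 and 25.6 FPKM at 20 mM. Every treated library was above every control. Its log2 change was 0.51 at 10 mM (SE 0.105, limma adjusted p = 0.00564) and 0.62 at 20 mM (SE 0.105, adjusted p = 0.00133), a 1.45-fold and a 1.57-fold rise of the mean. The log2 ratio of OGT to OGA was -0.65, -0.29 and -0.68 in controls, -0.18, -0.51 and -0.47 at 10 mM and -0.50, -0.44 and -0.44 at 20 mM, so the 3 groups overlapped. The log2 ratio of OGT to GFPT1 was 0.20 to 0.55 in controls, -0.31 to -0.19 at 10 mM and -0.49 to -0.31 at 20 mM, and here every treated library lay below every control.

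**Figure D3:**
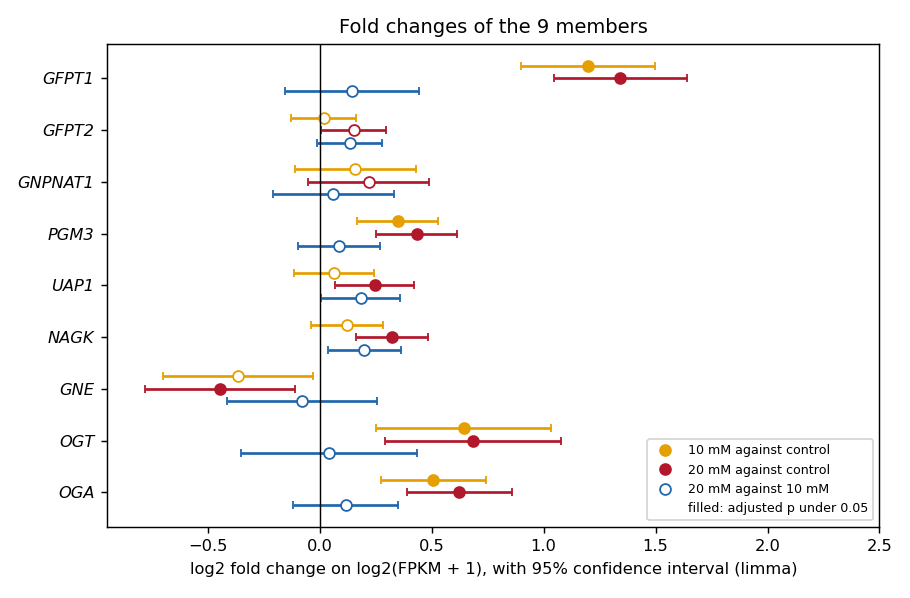
log2 fold change of each member on the log2(FPKM + 1) scale (x axis) with its 95% confidence interval from limma, for 10 mM against control, 20 mM against control and 20 mM against 10 mM. Filled points have an adjusted p under 0.05: 4 members at 10 mM, 7 at 20 mM and none between the doses.

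Between the doses no member was called, and limma called 0% of all genes tested there. At an unadjusted p under 0.05 there were 2 members, UAP1 (0.18, 95% interval 0.005 to 0.36) and NAGK (0.20, 0.04 to 0.36), with adjusted p of 0.720 and 0.597, beside 6.88% of all genes. limma-voom on reads worked back from the FPKM also called 0 members, and 0% of all genes tested. For GFPT1 the difference of 20 mM from 10 mM was 0.14 (-0.15 to 0.44), for OGA 0.12 (-0.12 to 0.35) and for OGT 0.04 (-0.35 to 0.43). These intervals leave room for a difference of some size in either direction between the doses.

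The members also differed between libraries of 1 dose, and 7 of them did so in the same way. All but GFPT2 and NAGK were above their group mean in 10 mM replicate 1 and below it in 10 mM replicate 2 and in control replicate 1, a pattern found in 33.7% of all genes tested. OGT spread most: its deviations on the log2(FPKM + 1) scale were -0.27, 0.29 and -0.02 in controls, 0.38, -0.32 and -0.06 at 10 mM and -0.09, 0.02 and 0.07 at 20 mM. The GFPT2 deviations stayed between -0.12 and 0.07 and those of NAGK between -0.08 and 0.09.

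Gene length moved with these libraries. The level of genes over 8 kb relative to genes of 1 to 2 kb was -1.46, -1.16 and -1.26 (log2) in controls, -0.95, -1.47 and -1.19 at 10 mM and -1.16, -1.20 and -1.08 at 20 mM. It was thus lowest in control replicate 1 and 10 mM replicate 2 and highest in 10 mM replicate 1. Of 996 genes over 8 kb with a mean of at least 5 FPKM, 64.2% had the pattern of the 7 members. The lengths that returned whole reads were 9786 bases for OGT, 8897 for NAGK, 8851 for GFPT1, 7478 for PGM3, 7247 for OGA, 5856 for GNE, 4721 for GFPT2, 4619 for UAP1 and 4010 for GNPNAT1. Only that of OGA is its GENCODE length, and the others came from a search. For UAP1 the GENCODE exons span 3437 bases. NAGK did not have the pattern, although its length is the second longest among the members. In GENCODE the merged exons of its 29 transcripts span 8894 bases. The other members have 4 to 15 transcripts there. The length of the transcripts expressed here was not measured for any member. With that length measure as a covariate, chosen after seeing the data, OGT changed by 0.52 at 10 mM (limma adjusted p = 0.000526) and 0.48 at 20 mM (adjusted p = 0.000782), and GFPT1 by 1.11 and 1.19. GNE was then called lower at 10 mM (-0.47, adjusted p = 0.000963) and 20 mM (-0.61, adjusted p = 0.000232). The covariate was computed from the values of these same libraries, and its long genes include OGT and GFPT1. The smaller adjusted p-values are therefore not added support for the calls. The part of RNA quality or library preparation in this spread was not tested.

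**Figure D4:**
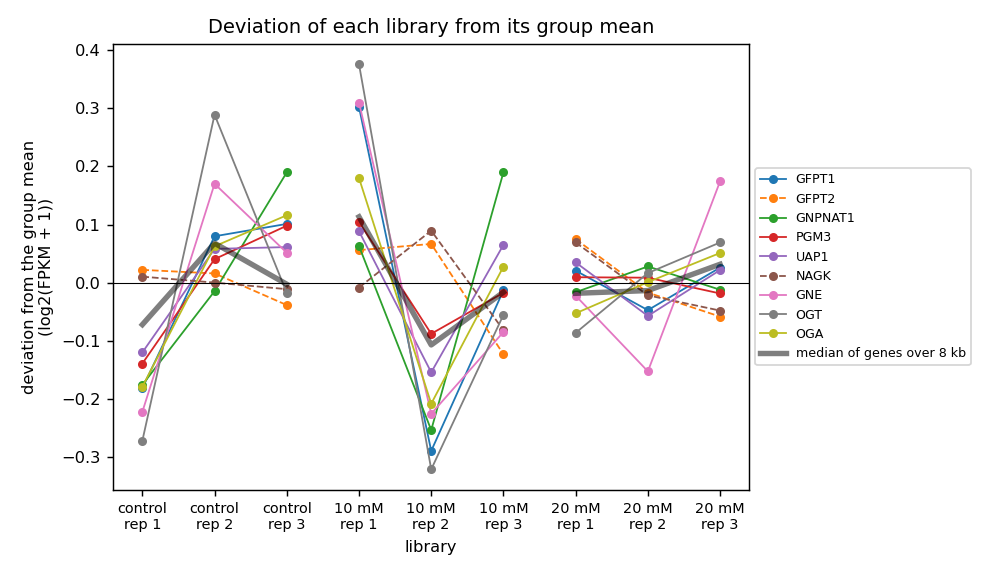
Deviation of each library from its group mean on the log2(FPKM + 1) scale (y axis) for the members and for the median of genes over 8 kb, with libraries along the x axis. OGT reaches 0.38 in 10 mM replicate 1 and -0.32 in 10 mM replicate 2, and the long genes' median moves the same way with a smaller size (0.11 and -0.11).

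Among 5844 other protein-coding genes with a mean of at least 5 FPKM, those most like GFPT1 over the 9 libraries were UGDH (Pearson r = 0.998), which oxidises UDP-glucose to UDP-glucuronate, SLC39A14 (r = 0.997), a zinc and manganese transporter, and SLC7A11 (r = 0.996), the cystine transporter. UGDH went from 17.3 ± 1.70 FPKM in controls to 32.9 ± 6.16 at 10 mM and 36.1 ± 0.364 at 20 mM. Most like OGT were CCDC93 (r = 0.998), FEM1C (r = 0.995) and SLC7A1 (r = 0.986), an arginine transporter. Most like OGA were the histone demethylase gene KDM3A (r = 0.994), the kinase gene RIOK3 (r = 0.989) and NIBAN1 (r = 0.988). These correlations are descriptions: the libraries fall into dose groups and share the spread with gene length, and the genes were picked for their r.

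Lists of other genes of the pathway were fixed by function, with earlier results of these data known. Their counts stand beside the 12.1% of all genes tested called higher and 17.5% called lower at 10 mM, and the 15.4% and 21.6% at 20 mM. In counts this small, nothing is read as particular to a list. In the list of side reactions and paralogs, 10 of 11 genes could be tested (RENBP was too low), of which 2 rose and 1 fell at 10 mM and 4 rose and 1 fell at 20 mM. GNPDA1, the deaminase that returns glucosamine-6-phosphate to fructose-6-phosphate and so runs against the GFPT step, read 25.2, 26.6 and 26.7 FPKM in controls, 44.6, 44.8 and 43.6 FPKM at 10 mM and 48.3, 45.9 and 46.8 FPKM at 20 mM. All treated libraries of GNPDA1 were far above the controls, and the log2 change was 0.74 at 10 mM and 0.82 at 20 mM (SE 0.0490, limma adjusted p = 2.13e-06). UAP1L1, a paralog of UAP1, rose by 0.52 and 0.46, and AMDHD2, which deacetylates GlcNAc-6-phosphate, rose by 0.45 at 20 mM. GLUL, the glutamine synthetase, rose by 0.22 at 20 mM, and GPI, which supplies fructose-6-phosphate, fell by 0.22 at 10 mM (adjusted p = 0.0154) and by 0.16 at 20 mM. PGM2 had the lowest value of the list at 20 mM (-0.19, adjusted p = 0.0783) and was not called. The list's median was 0.09 and 0.13 at the 2 doses.

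Of the 5 genes of the sialic acid route after GNE, 3 rose at 10 mM, and 3 rose and 1 fell at 20 mM. NANS, the sialic acid phosphate synthase, went from 17.6 ± 1.18 FPKM to 25.3 ± 2.56 and 26.0 ± 0.581 FPKM, a log2 change of 0.50 and 0.54 (limma adjusted p = 0.000553 at 20 mM). CMAS, which activates sialic acid with CMP, went from 34.0 ± 3.55 FPKM to 28.6 ± 2.33 and 25.1 ± 2.34 FPKM, and fell at 20 mM by 0.42 on the log2 scale (adjusted p = 0.00639). NANP, the phosphatase between them, and NPL, the lyase that breaks sialic acid down, rose at both doses. NPL was near the floor, with 9 to 17 reads and 0.0789 ± 0.0230 FPKM in controls, and its mean rose 2.57-fold and 3.04-fold. The list's median was 0.16 and 0.20. At either dose this is the value of NPL, which the log2(FPKM + 1) scale shrinks.

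Of the enzymes and carriers that use UDP-GlcNAc in the ER and Golgi, 19 of 20 were tested (MGAT3 was too low). At 10 mM 2 rose and 4 fell, and at 20 mM 2 rose and 6 fell, where all genes tested also had more called lower than higher. The list's median was -0.11 and -0.05. DPAGT1, which starts the N-glycan precursor, rose by 0.31 and 0.27, and MGAT1, which starts complex N-glycans, rose by 0.20 and 0.35 (limma adjusted p = 0.00207 at 20 mM). GCNT1, the core 2 O-glycan enzyme, went from 1.94 ± 0.195 FPKM to 0.961 ± 0.181 and 0.797 ± 0.101 FPKM, a log2 ratio of the means of -1.01 and -1.28. On the log2(FPKM + 1) scale of the test, which shrinks changes at such low levels, its change was -0.59 and -0.71 (adjusted p = 0.000325 at 20 mM). The heparan sulfate polymerase genes EXT1 and EXT2 fell at both doses, by 0.31 and 0.20 at 20 mM, as did POMGNT1, and B3GNT2 and EXTL2 fell at 20 mM. No gene of these lists was called between the doses by limma, at a background of 0%.

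**Figure D5:**
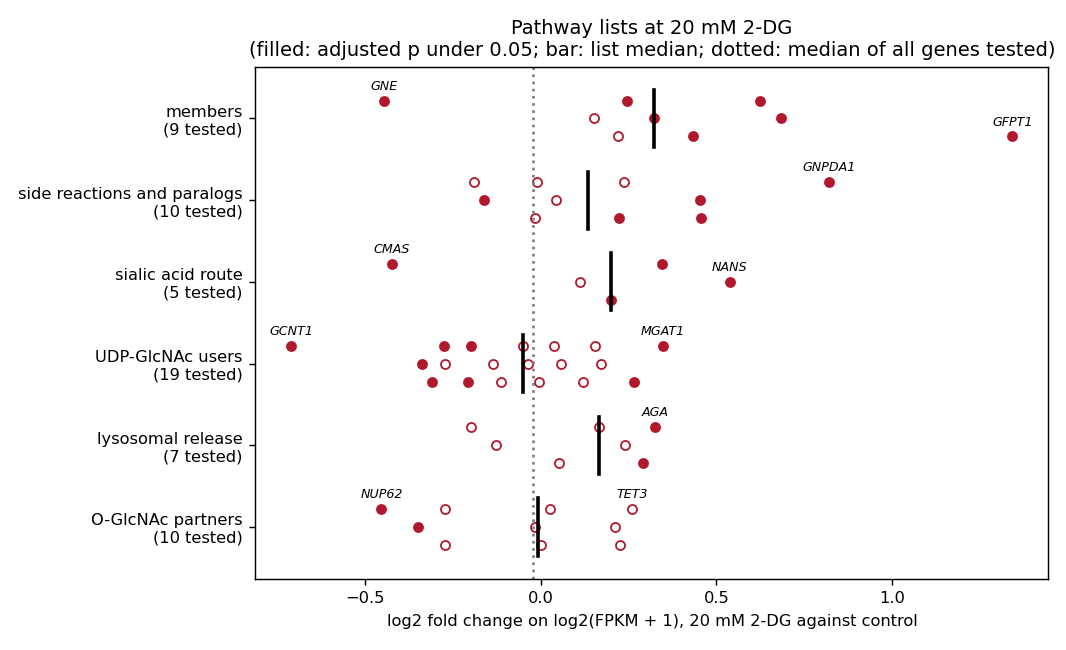
log2 fold change at 20 mM 2-DG against control for each tested gene of the members and the pathway lists, 1 point per gene, with the median of each list marked. The medians run from -0.05 for the UDP-GlcNAc users to 0.32 for the members, and GFPT1 stands apart at 1.34.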

How the data were processed

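Total RNA (1.3 µg, Qiagen kit) of MDA-MB-231 cells was made into libraries with a SMARTER mRNA-Seq kit, per the labels. The authors deposited FPKM values, 1 table per library for 61552 genes (20495 without a name). The submitters' processing notes name GRCh38 and hg38; the aligner, the counting tool and the annotation release are not given in the sources used here. Library totals were worked back from the FPKM with GENCODE 29 exon lengths. Reads within 0.005 of a whole number were found for 32805 of 32806 genes above 0. Of these genes, 16343 (49.8%) fit with their GENCODE length. For the others, the shortest fitting length up to 120000 bases was searched, so a fit there is no match to GENCODE. The reads are not the authors' counts.

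A filter kept 16570 genes that reached the equivalent of 10 reads, at median depth, in 3 or more libraries, with a summed minimum of 15. They were tested on log2(FPKM + 1), a scale that understates the change of low genes, with limma 3.58.1 in R 4.3.3 (lmFit over all 9 libraries, eBayes with trend, no replicate block, Benjamini-Hochberg adjustment). On simulated data for 20 mM against control, with 200 changed genes among 16570, 94.5% of the 200 were recovered and 8 unchanged genes were called. The size of change used there is not given here. Recovery at the size of the members' own changes was not tested separately. Promoter windows came from RefSeq (GRCh38.p14).

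The members and gene lists were chosen with earlier results of these data known. Text names all members, list genes called with an absolute log2 fold change over 0.5 at 20 mM, each list's largest change in each direction, and the 3 genes most correlated with GFPT1, OGT and OGA; other list genes were named after their values were seen. Lactate-treated cells were not analysed here.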

Additional observations from a re-analysis of the deposited data

How the results depend on the processing

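Over 20 alternatives each, GFPT1, PGM3 and OGA kept their calls at both doses and NAGK at 20 mM, except that under the rule of an unadjusted p under 0.05 with an absolute log2 fold change over 1 only GFPT1 remained, which left 1 member at either dose and 0 list genes instead of 15 and 21. Testing all 32806 genes above 0 left 4 members at 20 mM, losing OGT (adjusted p = 0.0512), UAP1 (0.0809) and GNE (0.121), and OGT at 10 mM (0.0774). With the long-gene covariate, 23 list genes were called at 10 mM, and OGT between the doses turned to -0.0359. Upper-quartile scaling gave 7 members higher and 0 lower at 20 mM in place of 6 and 1, and 10 list genes higher and 5 lower at 10 mM in place of 8 and 7, and 13 and 6 at 20 mM in place of 11 and 10. Median-ratio scaling gave 9 and 5, and 13 and 7. limma-voom also called GNE at 10 mM (-0.41, adjusted p = 0.0456). The share of all genes called is not given for the other scalings, the covariate or all 32806 genes. Nor is it given below for the fits without 1 library or with the replicate block. Shifts in those counts are therefore not read as particular to the members or the lists.

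Leaving out 1 library at a time gave 3 to 5 members at 10 mM, 5 to 7 at 20 mM and 0 to 0 between the doses, and 10 to 14, 15 to 24 and 0 to 0 list genes. Uncalled differences changed sign: GFPT2 at 10 mM ran from -0.0156 to 0.0793, and between the doses GFPT1 ran from -0.00019 to 0.30, GNPNAT1 from -0.0668 to 0.15, OGT from -0.12 to 0.23 and GNE from -0.19 to 0.0749. The cause was not tested.

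Libraries with the same replicate number shared only a number (r of their deviations -0.406 to 0.293). With the replicate block, 4 members were called at 10 mM and 5 at 20 mM, UAP1 (adjusted p = 0.0549) and GNE (0.0730) being the ones no longer called.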

Other observations

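Among 7 lysosomal enzymes that free GlcNAc from glycans, 1 rose at 10 mM and 2 rose at 20 mM, and 0 were called lower by limma, where 12.1% and 15.4% of all genes tested were called higher. AGA, the aspartylglucosaminidase, went from 6.85 ± 0.0437 FPKM to 8.92 ± 0.303 and 8.85 ± 0.711 FPKM (SD, n = 3 each), a log2 change of 0.34 and 0.33 (adjusted p = 0.00501 at 20 mM). HEXA, a beta-hexosaminidase subunit, rose by 0.29 at 20 mM. CTBS, the di-N-acetylchitobiase, had the lowest value (-0.20 at 20 mM, adjusted p = 0.0600) and was not called. The list's median was 0.12 at 10 mM and 0.17 at 20 mM.

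Of 10 known partners and substrates of OGT, 2 fell at either dose and 0 were called higher by limma, where 17.5% of all genes tested were called lower at 10 mM and 21.6% at 20 mM, so the share is near that of all genes. NUP62, a heavily O-GlcNAc-modified nuclear pore protein, went from 23.0 ± 1.47 FPKM to 17.0 ± 0.543 and 16.5 ± 0.130 FPKM, a log2 change of -0.42 and -0.45 (limma adjusted p = 0.000290 at 20 mM). BAP1, a deubiquitinase found in complex with OGT and HCFC1, fell by 0.34 and 0.35. TET3 had the highest value of the list at 20 mM (0.26, adjusted p = 0.251) and was not called. The list's median was 0.00 at 10 mM and -0.01 at 20 mM.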
